A study of Mus musculus with 4 samples.

Results

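The spindle assembly checkpoint genes described here are Bub1, Bub1b, Bub3, Mad1l1, Mad2l1, Mad2l1bp, Ttk and Cdc20. They were taken by gene name from the array files, all probes included, which gave 8 of 27962 gene names and 12 of the 41174 probes on the array other than controls. Each of 4 arrays compared 1 pool of 50 mouse oocytes held for 60 min at a hydrostatic pressure of 20 MPa and 37 °C with 1 pool of 50 oocytes handled alike but without the pressure. Per the labels, Cy5 (red) always marked the pressurised pool and Cy3 (green) its control, so dye and treatment cannot be told apart. The strain, age and maturation stage of the oocytes are not given in the sources used here, and a pool averages over its 50 cells.

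The checkpoint delays anaphase until every chromosome is attached to the spindle. At an unattached kinetochore the kinase TTK (MPS1) starts the signal, BUB1, BUBR1 (from Bub1b) and BUB3 gather there, and MAD1 presents MAD2, which together with BUBR1 and BUB3 binds CDC20 and so blocks the anaphase-promoting complex. In oocytes this pathway guards the segregation of homologous chromosomes in meiosis I, and fully grown oocytes rely on stored mRNA for such proteins.

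The sequences of 8 probes are shown first, because the results turn on whether probes of the same gene agree (Bub3, Mad2l1) and on the genes with the widest ratios (Bub1, Cdc20). Each line holds the first 30 of the probe's 60 bases, 5′ to 3′ as the array files give them, in lower case with no base marked.
Bub3 probe A_51_P381873, chr7:127925425-127927641, plus strand: agaaacaaagcccaagtccacgtaatctgg
Bub3 probe A_52_P110040, chr7:127928438-127928497, plus strand: aggtgaccaaattaaagccgtgttatggac
Bub3 probe A_52_P1052476, chr7:127926908-127926967, plus strand: ggctgctaaacaaagcgaggttaaggttag
Bub3 probe A_52_P470832, chr7:127918956-127919015, plus strand: tgtatttcagttggctgtgtaaaaacattt
Mad2l1 probe A_51_P230873, chr6:66520777-66520836, plus strand: catacaggatgaaattcgctcagtgattag
Mad2l1 probe A_51_P230878, chr6:66521660-66521719, plus strand: cgctcatttacgaccacaatccataaagtg
Bub1 probe A_51_P123405, chr2:127542105-127542164, minus strand: aacaagattaagaccttgcgtaataggcta
Cdc20 probe A_51_P361022, chr4:117809370-117809429, minus strand: tagcctcatccaccaaggcatccgttgaac

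Positions come from the array files (build mm7), and exon or UTR status was not analysed here. The first Bub3 probe covers 2217 bases of the genome with 60 bases of sequence, so it crosses at least 1 splice junction, and probe A_52_P1052476 lies inside the interval that it spans. The Ttk probe crosses a junction too, with a span of 2944 bases at chr9:83963365-83966308. The GC content of the 12 probes lay between 35% and 45%, with a median of 41.7%, beside a median of 40% over all probes that passed the filter below.

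Of the 43379 spots on an array, 7049 to 11155 read well above background for the treated pool and 8309 to 10837 for the control pool. To be tested, a probe had to be detected in this way in 1 channel on 3 or more of the 4 arrays, and 8108 of 41174 probes were. Replicate 1 stood apart: the correlation of its log2 ratios over tested probes was -0.19 with replicate 2, -0.18 with replicate 3 and -0.21 with replicate 4, while the other pairs had 0.32, 0.091 and 0.27. These are descriptions across probes, which are not replicates. The direction of replicate 1 follows its label but is in doubt, so each checkpoint mean that turning its sign reverses or moves by over 1.5 times is also given that way, a setting added after the data were seen. Before normalization the median ratio of treated to control signal over the tested probes was 1.96 on replicate 1 and 0.33, 0.23 and 0.34 on replicates 2 to 4. Of 16 oocyte markers, 11 had a tested probe, among them Gdf9, Bmp15 and Zp3, whereas Zp2, Mos and Nlrp5 did not pass the filter. Of 14 cumulus and granulosa cell markers 6 had a tested probe: Hsd17b1, Nr5a2, Cyp19a1, Tnfaip6, Inha and Ptgs2. Amh, Fshr and Foxl2 were among those without. The summed normalized intensity of the 6 ran from 986 to 3707 in treated and from 1239 to 2783 in control pools. Of 8 blood markers 2 had a tested probe, Srgn and Hba-a1. Of 10 markers of oviduct, endothelium and stroma 3 did, Acta2, Krt8 and Kdr. Tnfaip6, Srgn, Hba-a1 and Acta2 were well above background on 4 of 4 arrays in both channels. Over the whole array 6939 of 27962 gene names had a tested probe. Whether the pools held RNA of other cells was not tested.

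Of the 12 checkpoint probes, 8 passed the filter, and they cover 7 of the 8 genes. Ttk was the gene without a tested probe. Bub1 and Mad2l1 (probe A_51_P230878) passed through the control channel alone: Bub1 was well above background on 4 control and 2 treated channels, and Mad2l1 on 4 control and 1 treated. Their selection therefore favours values that are lower in treated pools.

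No checkpoint transcript passed the test of a difference between treated and control oocytes against the spread between arrays. In limma's test of the log2 ratio against 0, 0 of 8 probes passed at an adjusted p of 0.05, and 0 were under an unadjusted p of 0.05. Over all tested probes 0 of 8108 passed (0%), while 261 were lower (3.22%) and 63 higher (0.777%) at an unadjusted p of 0.05. Adjusted p-values began at 0.93, both among the checkpoint probes and over all probes. In bulk pools, fewer oocytes holding a transcript and less of it per oocyte cannot be told apart.

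The mean log2 ratio was below 0 for 5 of the 8 tested checkpoint probes, beside 52.3% of all tested probes. These 5 include Bub1 and Mad2l1, which passed the filter through the control channel alone. That selection favours means below 0, both in this count and in the median of the 8 means. None of the 8 had a mean at least 2-fold lower or higher, which 0.851% and 1.06% of all tested probes had. The median of the 8 means was -0.20, beside -0.02 over all tested probes. Replicates 1 to 4 had checkpoint medians of 0.15, -0.085, -0.039 and -0.57, which average -0.14 ± 0.31 (SD, n = 4). On replicate 1, 5 of the 8 probes lay above 0, and on each of the other arrays 6 of 8 lay below. Of all tested probes, 51.3% lay above 0 on replicate 1, and 43.0%, 45.9% and 47.2% on replicates 2 to 4.

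**Figure D1:**
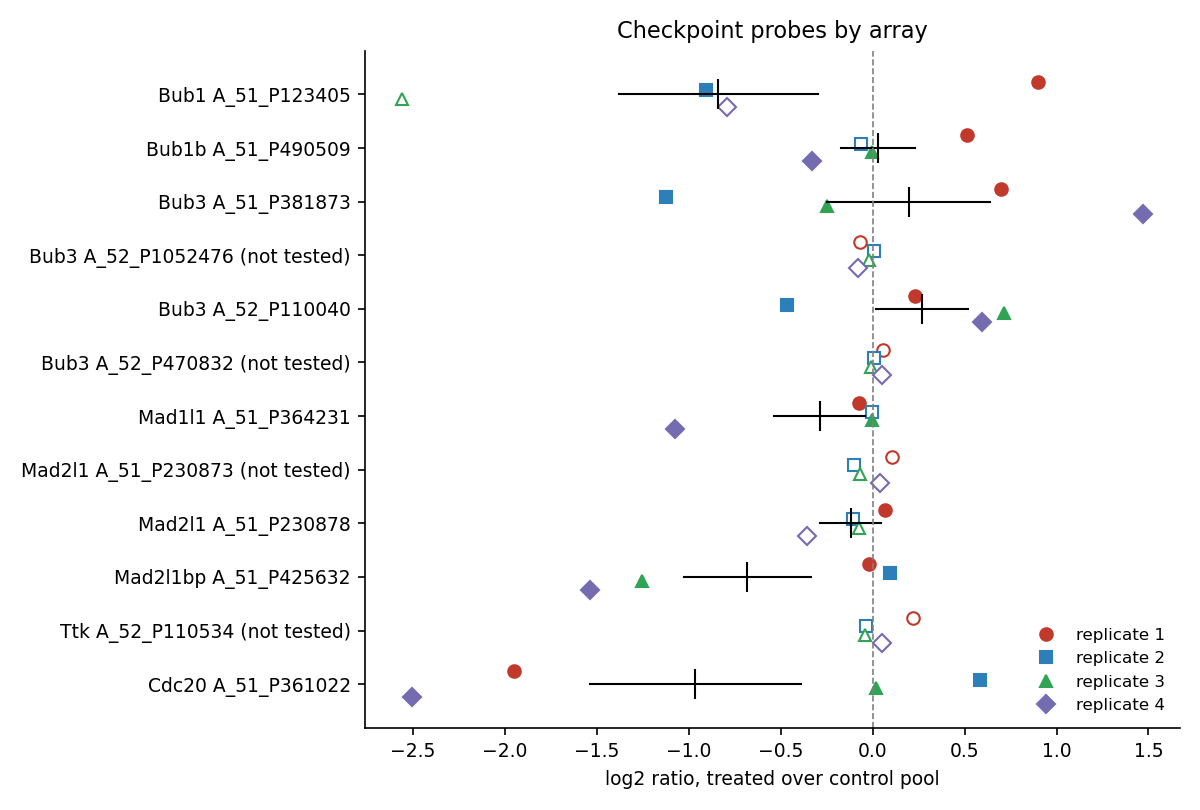
Log2 ratio of treated over control pool (horizontal axis) for the 12 checkpoint probes, with a symbol for each array, filled where both channels were well above background. Vertical ticks and bars are the mean and limma's SE of the 8 tested probes; Bub1 ranges from -2.56 to 0.90 and Cdc20 from -2.50 to 0.58, while the untested probes stay near 0.

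Among the kinetochore kinases, Bub1, which marks centromeric chromatin and helps bring MAD1 to the kinetochore, varied most from high to low. Its normalized log2 intensity was 8.26, 7.95, 7.02 and 6.43 in the treated pools of replicates 1 to 4 and 7.36, 8.86, 9.58 and 7.22 in the control pools. The treated pool was the brighter on replicate 1 and the dimmer on replicates 2 to 4, and the ranges of the groups overlapped. The log2 ratios were 0.90, -0.91, -2.56 and -0.79, with a mean of -0.84 ± 0.54 (SE, n = 4) and an interval from -2.20 to 0.52 (limma, adjusted p = 0.93). On replicate 3 the treated spot read a mean signal of 41.4 over a local background of 35, and the control spot 958 over 29.

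Of the 8 probes, Bub1 had the mean that shifted by the largest log2 amount when 1 array was left out, though it stayed below 0. Without replicate 1 its mean was -1.42, with an unadjusted p of 0.024 and an adjusted p of 0.41 by limma, and without replicate 3 it was -0.27. With the sign of replicate 1 turned, all 4 ratios were below 0 and the mean was -1.29 (limma, unadjusted p = 0.012, adjusted p = 0.21). That sign was turned after the data were seen, and Bub1 had passed the filter through the control channel alone. The p-values of Bub1 in these settings are therefore a description and no test of lower Bub1. With the software's processed signals the mean was -2.37 (limma, adjusted p = 0.77). Those lack the offset added to every signal here and also differ in background and dye normalization. They put replicate 3, where the treated spot was not well above background, at -6.43.

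Ttk, the kinase that starts checkpoint signalling, was near background. It was well above background on 1 of 4 arrays in the treated channel (replicate 1) and on 1 of 4 in the control channel (replicate 2). The normalized log2 intensities were 6.47, 6.37, 6.18 and 6.26 in treated and 6.25, 6.40, 6.22 and 6.21 in control pools. At this signal no difference in Ttk was measurable, and it was not tested.

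Bub1b encodes BUBR1, which joins the complex that holds CDC20. Its log2 intensity was 7.12, 6.53, 6.70 and 6.96 in treated and 6.61, 6.59, 6.70 and 7.28 in control pools of replicates 1 to 4. The groups overlapped, and the array with the brightest treated pool was replicate 1. The log2 ratios of 0.52, -0.062, -0.0035 and -0.33 gave a mean of 0.03 ± 0.20 (SE, n = 4), with an interval from -0.47 to 0.53 (limma, adjusted p = 0.99). The sign of this mean changed without replicate 1 (-0.13), with the sign of replicate 1 turned (-0.23), with processed signals (-0.40) and with median centring (-0.18), so no direction was read from it.

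Bub3, the adaptor that carries BUB1 and BUBR1 to the kinetochore, was the gene with the most probes, and they fell into 2 kinds. The junction probe A_51_P381873 and probe A_52_P110040, both designed to the RefSeq transcript NM_009774, were well above background in 4 of 4 treated and 4 of 4 control channels. Probes A_52_P1052476 and A_52_P470832, designed to the cDNAs AK083742 and BC086790, were above background in 0 of 4 channels of either kind. Their log2 intensities stayed between 6.14 and 6.27 in all 16 readings. These 2 probes thus gave no detectable signal in either group. Whether the transcript forms were missing or the probes failed to report them was not tested.

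For the junction probe the log2 intensity was 9.59, 8.72, 7.75 and 10.96 in treated and 8.90, 9.85, 7.996 and 9.49 in control pools. The treated pool was the brighter on replicates 1 and 4 and the dimmer on replicates 2 and 3. The log2 ratios of 0.70, -1.13, -0.25 and 1.47 had a mean of 0.20 ± 0.44 (SE, n = 4), with an interval from -0.91 to 1.31 (limma, adjusted p = 0.96). This mean changed sign without replicate 4 (-0.23) and with the sign of replicate 1 turned (-0.15), and was 0.64 without replicate 2.

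The other detected Bub3 probe, whose start lies 3013 bases downstream, read 8.39, 8.99, 8.07 and 7.39 in treated and 8.16, 9.45, 7.36 and 6.79 in control pools. Its log2 ratios were 0.23, -0.46, 0.71 and 0.60, with a mean of 0.27 ± 0.25 (SE, n = 4) and an interval from -0.35 to 0.89 (limma, adjusted p = 0.93). With the sign of replicate 1 turned the mean was 0.15. The sign matched that of the junction probe on 3 of 4 arrays, replicate 3 being the exception. On single arrays the 2 probes differed by -0.87 to 0.96 on the log2 scale. Median centring, under which all tested probes together had a median of -0.32, put both detected Bub3 probes below 0, at -0.37 and -0.13.

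**Figure D2:**
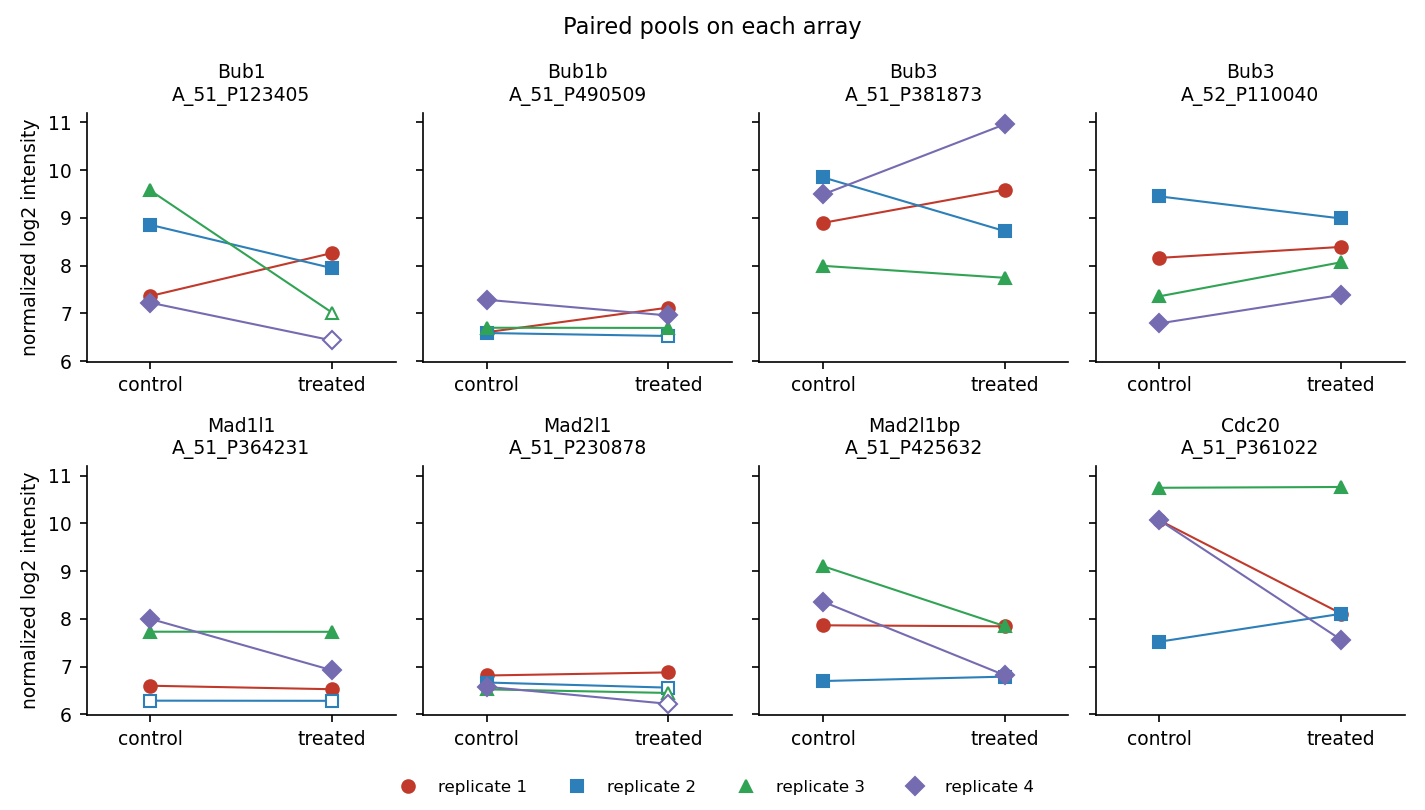
Normalized log2 intensity (vertical axis) of the control and treated pool of each array for the 8 tested checkpoint probes, with a line joining the pools of an array and open symbols where a channel was not well above background. The lines of Bub1, Bub3 and Cdc20 run in different directions on different arrays, and the groups overlap for all 8 probes.

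Mad1l1 encodes MAD1, which anchors MAD2 at unattached kinetochores (probe at chr5:138979671-138979730). The log2 intensity was 6.53, 6.28, 7.73 and 6.92 in treated and 6.60, 6.29, 7.73 and 8.001 in control pools, with replicate 2 not well above background in either channel. On 3 arrays the pools of an array were nearly equal, and on replicate 4 the control pool was brighter. Accordingly the log2 ratios were -0.073, -0.0032, -0.0021 and -1.08, with a mean of -0.29 ± 0.25 (SE, n = 4) and an interval from -0.91 to 0.33 (limma, adjusted p = 0.93). Mad1l1 was the only tested checkpoint probe below 0 on all 4 arrays, 1 of 8 beside 9.18% of all tested probes with 4 values, and 0 of 8 were above 0 on all 4, beside 3.04%. Its sign on single arrays depended on the processing. Processed signals put replicate 3 at 0.19, and median centring put replicates 1 and 2 at 0.27 and 0.0026, while the other arrays stayed below 0. Without replicate 4 the mean of Mad1l1 was -0.03, and with processed signals -0.71.

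Mad2l1 encodes MAD2, the protein that binds CDC20, and was dim in every pool. Its tested probe, A_51_P230878, read 6.88, 6.56, 6.45 and 6.22 in treated and 6.81, 6.67, 6.52 and 6.58 in control pools, and of the treated pools only replicate 1 was well above background. The log2 ratios were 0.065, -0.11, -0.075 and -0.36, with a mean of -0.12 ± 0.17 (SE, n = 4) and an interval from -0.54 to 0.30 (limma, adjusted p = 0.95). The other probe of the gene, 883 bases upstream, was well above background on 1 treated and 2 control channels and was not tested. It read log2 ratios of 0.11, -0.10, -0.068 and 0.039, the same sign as the tested probe on 3 of 4 arrays. With processed signals, which differ in background and dye normalization, the tested probe was at -1.72 (limma, adjusted p = 0.71), with no background subtraction at -0.29, and without replicate 4 at -0.04.

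Mad2l1bp encodes p31comet, which together with the ATPase TRIP13 takes the checkpoint complex apart (probe at chr17:44276852-44276911). Its log2 intensity was 7.84, 6.79, 7.85 and 6.82 in treated and 7.87, 6.70, 9.10 and 8.36 in control pools, well above background in all 8 channels. The pools matched on replicates 1 and 2, and the treated pool was the dimmer on replicates 3 and 4. The log2 ratios of -0.021, 0.092, -1.26 and -1.54 had a mean of -0.68 ± 0.34 (SE, n = 4), with an interval from -1.54 to 0.18. Its unadjusted p of 0.100 was the lowest of the 8 probes (limma, adjusted p = 0.93). The mean was -0.40 without replicate 4 and -0.94 without replicate 2.

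Cdc20, the activator of the anaphase-promoting complex that the checkpoint holds back, had the largest SD of the log2 ratio among the 8 probes. Its log2 intensity was 8.11, 8.11, 10.76 and 7.56 in treated and 10.06, 7.52, 10.75 and 10.07 in control pools, above background in all 8 channels. The treated pool was the dimmer on replicates 1 and 4, nearly equal to control on replicate 3 and the brighter on replicate 2. Log2 ratios of -1.95, 0.58, 0.017 and -2.50 gave a mean of -0.96 ± 0.57 (SE, n = 4), with an interval from -2.40 to 0.47 (limma, adjusted p = 0.93). Leaving out replicate 2 gave -1.48, with an unadjusted p of 0.042 and an adjusted p of 0.99 by limma. Leaving out replicate 4 gave -0.45, weighting the arrays gave -0.03, and turning the sign of replicate 1 gave 0.012. The weights, which limma estimated from these same ratios, were 0.44, 3.46, 1.23 and 0.54 for replicates 1 to 4. Replicate 2, where Cdc20 was at 0.58, thus counted most in the weighted mean.

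**Figure D3:**
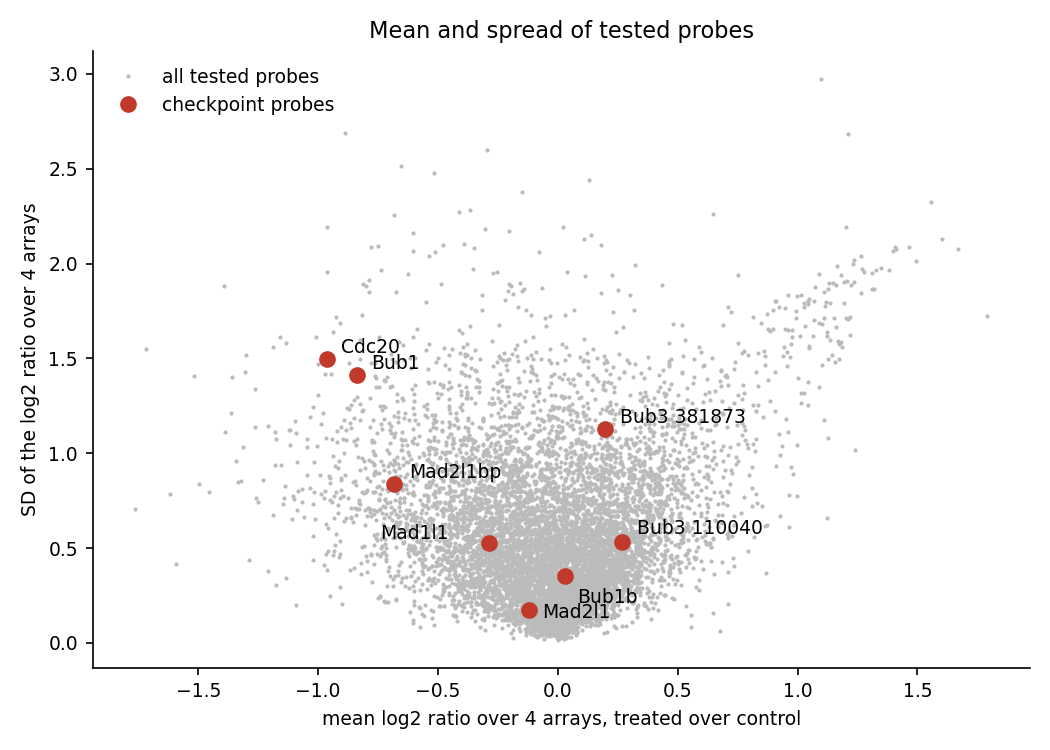
Mean (horizontal axis) and SD (vertical axis) of the log2 ratio over the 4 arrays for the 8108 tested probes, with the 8 checkpoint probes in red. Cdc20 and Bub1 lie left of 0 at SDs of 1.496 and 1.41, and Mad2l1 and Bub1b lie near 0 at SDs of 0.18 and 0.35.

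The checkpoint probes differed widely in how far their arrays lay apart. The SD of the log2 ratio over arrays was 1.496 for Cdc20, 1.41 for Bub1, 1.13 for the Bub3 junction probe, 0.84 for Mad2l1bp, 0.53 for the other Bub3 probe and for Mad1l1, 0.35 for Bub1b and 0.18 for Mad2l1. The median SD of the 8 was 0.68, beside 0.52 over all tested probes. Among all tested probes, 96.9% had a smaller SD than Cdc20 and 95.9% a smaller SD than Bub1. The lowest and highest array lay more than 2 log2 units apart for 3 of the 8 probes, Bub1, Cdc20 and the Bub3 junction probe, and for 19.1% of all tested probes. The lowest spreads belonged to the dim probes, whose ratios are drawn toward 0 by the offset of 50 added to every signal.

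The arrays also differed in which checkpoint probes were measured. In the treated channel 10 of the 12 probes were well above background on replicate 1, and 5, 6 and 6 on replicates 2 to 4. In the control channel the counts were 8, 9, 9 and 8. Over the whole array, detected treated spots were also most numerous on replicate 1, at 11155 of 43379. Replicates 2 to 4 had 7192, 7049 and 8146. Detected control spots numbered 8309, 9505, 10102 and 10837 on replicates 1 to 4. The higher treated count of replicate 1 was thus not particular to the checkpoint probes. On replicate 1 the treated channel was also the brighter before normalization, and its part in these counts was not tested.

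**Figure D4:**
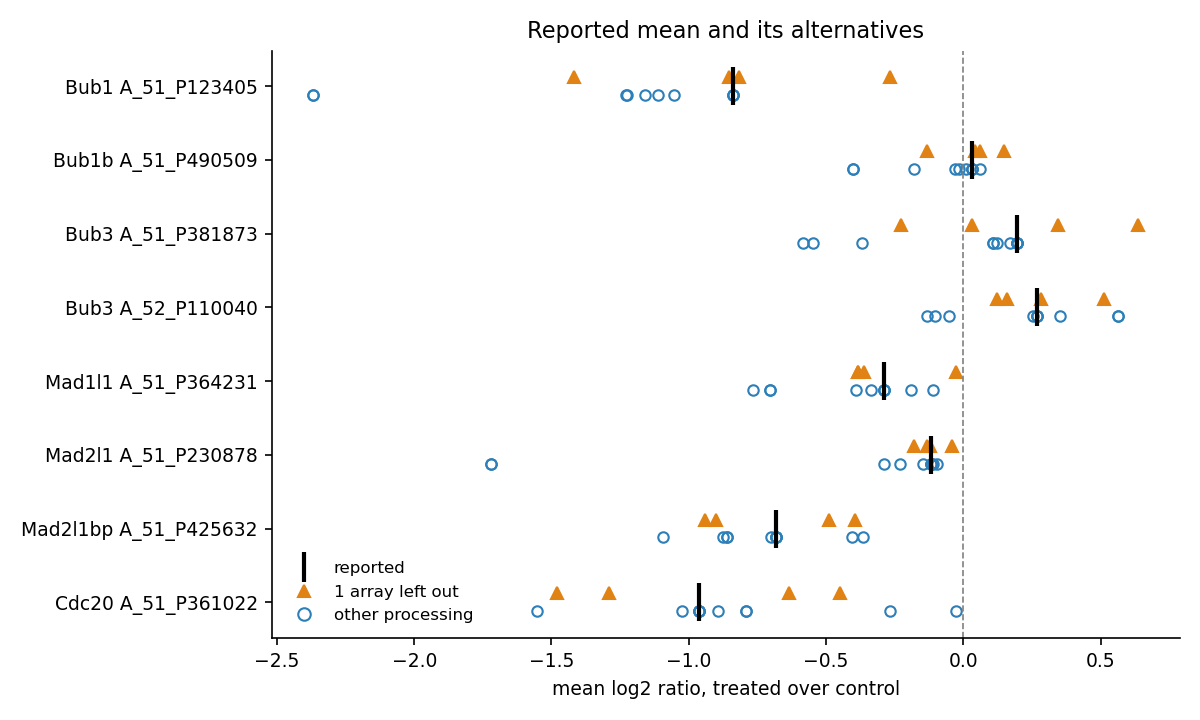
Mean log2 ratio (horizontal axis) of the 8 tested checkpoint probes as reported (black tick), with 1 array left out (triangles) and under other processing (circles). The turned sign of replicate 1 is not plotted. Bub1 runs from -2.37 to -0.27 and Cdc20 from -1.55 to -0.03 on the same side of 0, while Bub1b and both Bub3 probes lie on both sides.

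Genes that act around the checkpoint were taken from 3 lists. Of 25 genes of the kinetochore and checkpoint platform, the structure on which the checkpoint proteins gather, 16 had a tested probe. Over their 18 probes 0 were called higher and 0 lower, and the median log2 ratio was -0.19. Of the 18 means 12 lay below 0, beside 52.3% of all tested probes. Trip13, Knl1, Tpr, Spc24, Cenpk probe A_52_P4666 and Zwint probe A_52_P509710 passed the filter through the control channel alone, which favours means below 0. Zwint, which binds the kinetochore protein KNL1, had -0.47 ± 0.21 (SE, n = 4), and its other tested probe had 0.03. Nsl1, a subunit of the MIS12 complex, had 0.55 ± 0.30 (SE, n = 4). Ndc80 and Spc25 of the microtubule-binding NDC80 complex did not pass the filter on dim probes.

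All 12 genes of the chromosomal passenger complex and the centromere guard had a tested probe. These include the aurora kinases, which correct wrong attachments, and the shugoshins, which protect centromeric cohesion. Of their 15 probes 0 were called, and the median was -0.10. Of the 15 means 11 lay below 0, beside 52.3% of all tested probes. Sgo1, Ppp1cc probe A_52_P540434 and Sgo2a probe A_52_P668812 passed the filter through the control channel alone, which favours means below 0. Ppp2r5c, a regulatory subunit of phosphatase PP2A, had 0.64 ± 0.24 (SE, n = 4). Of the 15 probes it was the 1 under an unadjusted p of 0.05 in either direction (limma, adjusted p = 0.93). Over all tested probes 324 of 8108 were under that p, 3.22% lower and 0.777% higher. Ppp2r5c lay above 0 on 4 of 4 arrays, at 1.32, 0.17, 0.38 and 0.68, as 3.04% of all tested probes with 4 values did. Ppp1cc, the catalytic subunit of phosphatase PP1 that helps silence the checkpoint, had -0.27 ± 0.19 (SE, n = 4). Its other tested probe had -0.17, with 0.14, 0.0049, -0.27 and -0.56 on replicates 1 to 4.

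Downstream of CDC20, 17 of 28 genes of the anaphase-promoting complex, its inhibitors and its targets had a tested probe. Of their 24 probes 0 were called in either direction, and the median was -0.05. Of the 24 means 13 lay below 0, beside 52.3% of all tested probes. Ube2c, Anapc7 and Anapc1 probe A_51_P402775 passed the filter through the control channel alone, which favours means below 0. Anapc13 and Cdc16, subunits of the complex, were below 0 on 4 of 4 arrays and under an unadjusted p of 0.05. These are 2 of 24 probes, beside 3.22% of all tested probes that were lower at that p and 9.18% that were below 0 on all 4 arrays. Anapc13 had -0.95 ± 0.32 (SE, n = 4; limma, adjusted p = 0.93), with -1.99, -0.42, -1.03 and -0.37 on replicates 1 to 4. The corresponding ratios of Cdc16 were -1.35, -0.61, -0.70 and -0.53. With the sign of replicate 1 turned, Ppp2r5c, Anapc13 and Cdc16 would each have that array on the other side of 0.

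**Figure D5:**
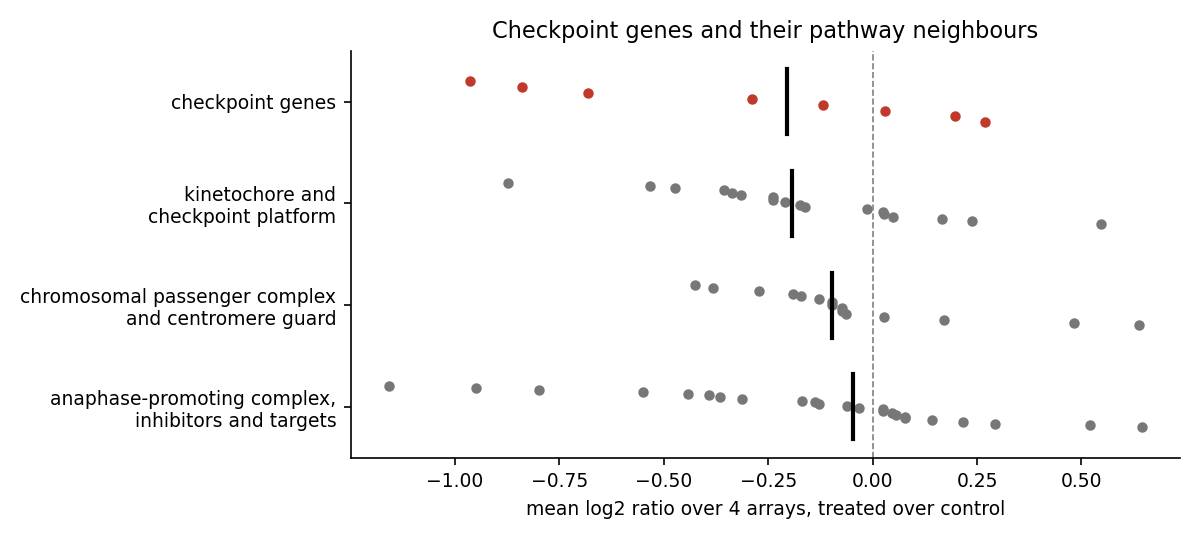
Mean log2 ratio (horizontal axis) of every tested probe of the checkpoint genes (red) and of 3 neighbouring gene lists (grey), with a black line at each median. The medians are -0.20, -0.19, -0.10 and -0.05 from top to bottom, and values of every list lie on both sides of 0. Every group holds probes that passed the filter through the control channel alone, which favours means below 0.

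The pattern of 2 checkpoint probes over the 4 arrays was compared with that of 8044 other probes. Cdc20 was taken as the probe with the highest mean log2 signal after loess, 9.187 against 9.186 for the Bub3 junction probe. The order was the other way on the scale of the levels given above, with 9.12 for Cdc20 and 9.16 for Bub3, so Bub3 was added after these values were seen. Cenpe, the kinetochore motor that carries chromosomes to the metaphase plate, was the nearest to Cdc20, with a root mean square difference of 0.25 on the log2 scale over 4 arrays. Its log2 ratios were -1.53, 0.79, -0.18 and -2.57. Bbs5, Arl5b, Aasdhppt and Isl2 followed at 0.41, 0.47, 0.48 and 0.57, beside a median of 1.69 over all probes compared. For the Bub3 junction probe the nearest were Snx16 at 0.074, Mrpl16 at 0.11, Cltc at 0.14, Gdpd1 at 0.23 and Vil1 at 0.24, beside a median of 1.097. With 4 values a probe this likeness is a description of these arrays.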

How the data were processed

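The members and gene lists were chosen with earlier results of these data known. RNA amplified in 2 rounds (240 pg a sample) was hybridised to Agilent arrays, per the labels' protocols. The deposited files hold mean and local background intensity values for both channels, extracted, as the submitters' processing notes name it, by Agilent Feature Extraction 9.5.1.1. Background-subtracted, dye-normalized signals and the red-to-green log10 ratio made from them stand beside these, per the file headers. The authors' deposited value table holds the same log10 ratio and served as an alternative.

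From the intensity values, limma 3.58.1 (R 4.3.3) corrected background by normexp with an offset of 50 and normalized each array by loess, in which control spots had weight 0. Those spots and flagged outliers were then dropped; saturation occurred nowhere. Repeated spots were averaged by probe. For levels, channels were put on a common scale by Aquantile. Log2 ratios were tested against 0 with lmFit and eBayes, Benjamini-Hochberg over 8108 tested probes. The text names every member probe, from each list the 2 genes with the lowest p, and the 5 genes most like the member probe of the highest mean log2 signal after loess. List names were updated through RefSeq (GRCm38.p6, names only): accessions named 5929 tested probes, symbols 995 and synonyms 478, while 706 kept the file's name. The submitters call the 4 replicates biological, and their number limits precision. Alternatives covered background, normalization, filter, probe choice, eBayes, array weights, the deposited value table and the omission of each array in turn. Turning the sign of replicate 1 was added after the data were seen.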

Additional observations from a re-analysis of the deposited data

Results flagged for a closer look

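Of 37 sets of 4 array values (log2 ratios and channel levels of the 12 probes, and the checkpoint median), 2 had 1 array far from the other 3, and chance gives about 1 in 20. The log2 ratio of Mad1l1 was -1.08 on replicate 4, with the others between -0.073 and -0.0021. The control level of Bub1b was 7.28 on replicate 4, with the others between 6.59 and 6.70.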

How the results depend on the processing

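Under all 16 alternatives 0 checkpoint probes and 0 probes in all passed limma's test. Where 8108 probes were tested, those at unadjusted p-values under 0.05 numbered from 152 (without replicate 3) to 1042 (sign of replicate 1 turned). They numbered 324 in the reported fit. The other counts were 1054 of 41174 without the filter, 150 of 4295 with both channels required and 291 of 6939 with the brightest probe per gene. Over all probes adjusted p-values reached down to 0.059 with the sign of replicate 1 turned, a setting chosen after seeing the data, and otherwise to 0.19, without replicate 1. The checkpoint median of -0.20 became -0.75 with processed signals and with the authors' values, and -0.57 with median centring. The last moved the median of all tested probes to -0.32, and processed signals moved it to -0.13. Leaving out 1 array gave -0.27 to -0.13. Bub1, Mad1l1, Mad2l1 and Mad2l1bp stayed below 0 in every alternative that held them, as did Cdc20 except with the sign of replicate 1 turned (0.012). That setting also turned Bub1b to -0.23 and the Bub3 junction probe to -0.15. Bub1b (reported at 0.03) turned to -0.40 with processed signals and with the authors' values. Bub1b, the Bub3 junction probe and the other Bub3 probe turned to -0.18, -0.37 and -0.13 with median centring. With scaling between arrays they were at -0.017, -0.59 and -0.10, and with array weights at -0.030, -0.55 and -0.054. Leaving out 1 array gave -0.13 to 0.15 for Bub1b and -0.23 to 0.64 for the junction probe. The cause of these changes was not tested. A block for slide or scan could not be fitted with 1 of each. The ratio itself pairs the treated with the control pool. Where both channels had to be detected on all arrays, 4 checkpoint probes remained. Signal near background limits Ttk, Mad2l1 and the 2 silent Bub3 probes. It also limits single arrays of other genes. The treated channel was not well above background for Bub1 on replicates 3 and 4 and for Bub1b on replicate 2. For Mad1l1 neither channel was on replicate 2.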
